A study of Caenorhabditis elegans with 2 samples.

Results

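The dauer signalling genes are the worm genes through which sensory, nutritional and hormonal cues decide between reproductive growth and arrest as a dauer larva. Here 10 of them were listed by name, out of 19973 protein-coding nuclear genes: 3 of the steroid hormone pathway (din-1, daf-12 and daf-9), 2 of the insulin pathway (daf-2 and daf-16) and 5 of the TGF-beta pathway (daf-7, daf-1, daf-4, daf-3 and daf-5). Binding of UNC-62, a Meis-class homeodomain protein, was mapped in whole Caenorhabditis elegans by ChIP-seq, in which DNA bound to a protein is recovered with an antibody and sequenced. Both samples, biological replicates 1 and 2, belong to 1 group of strain OP600, in the unc119(ed3) background with the insertion wgIs600. That transgene carries unc-62 fused to TY1, EGFP and FLAG tags, together with unc119. Sexes were pooled, and the stage is given as dauer in one label and as D4 in another. The antibody field names unc-62. Since whole animals were used, a region cannot be assigned to a tissue, and binding in few cells cannot be told apart from weak binding in many.

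The authors deposited lists of enriched regions on build ce11: 30000 regions for each replicate, 2155 regions called on both replicates pooled, and 95 regions that passed their irreproducible discovery rate (IDR) threshold, called reproducible here. The 95 regions were the first 95 of the pooled list by signal. The label reproducible therefore does not by itself show that a region ranked alike in both replicates. The replicate and pooled lists include background by design. Of the 2155 pooled regions 2136 were nuclear, and of the 95 reproducible regions 76 were, the rest being mitochondrial. Each region has a summit, which lay at its middle in 99.9% of pooled regions, and a signal value whose scale is not stated. Signals are therefore compared only within a list, and a rank of 1 is the highest signal. No pooled region had a q value below 0.05, and the lowest was 0.151. Sequencing depth is unknown from the files. With 1 group of 2 replicates no test between conditions was possible, and the counts below are descriptions. A gene's window is its body plus 5000 bp upstream in assembly WBcel235. At the target's own locus, unc-62, the window held 7 pooled summits, 3 of them reproducible. The highest nuclear region, at pooled rank 18, was at this locus, and all regions ranked above it were mitochondrial. The transgene also carries unc-62, and its part in the signal at this locus was not tested.

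In favourable conditions the steroid hormones made by the cytochrome P450 DAF-9 bind the nuclear receptor DAF-12 and promote reproductive growth; without hormone, DAF-12 acts with its corepressor DIN-1 to promote dauer formation. Insulin-like peptides acting through the receptor DAF-2 keep the forkhead factor DAF-16 out of the nucleus, and the TGF-beta ligand DAF-7 acts through its receptors to oppose the SMAD-type factor DAF-3 and its partner DAF-5. Reduced insulin or TGF-beta signalling leads to dauer arrest. UNC-62 is known as a partner of Hox proteins and, in adults, as a regulator of yolk protein genes.

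The windows of the 10 genes held 9 pooled summits, at din-1, daf-2, daf-12 and daf-5, and they are numbered within each gene in the direction of transcription. Sequence around 8 of them is shown because the rest of the account refers to their letters: 201 bp centred on the summit, on the gene's own strand, 5′ to 3′, read from the RefSeq assembly WBcel235 at the authors' ce11 coordinates. Site 3 of din-1 is cut where an untranslated exon begins, and site 4 lies in such an exon and is not shown. Capitals mark GAGAGA or its reverse complement TCTCTC.
din-1 site 1 (chrII:11634148-11634348, minus strand): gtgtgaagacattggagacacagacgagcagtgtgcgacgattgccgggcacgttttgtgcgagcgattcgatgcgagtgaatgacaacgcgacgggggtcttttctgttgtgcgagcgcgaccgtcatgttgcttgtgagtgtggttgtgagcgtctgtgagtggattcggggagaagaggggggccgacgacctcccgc
din-1 site 2 (chrII:11620715-11620915, minus strand): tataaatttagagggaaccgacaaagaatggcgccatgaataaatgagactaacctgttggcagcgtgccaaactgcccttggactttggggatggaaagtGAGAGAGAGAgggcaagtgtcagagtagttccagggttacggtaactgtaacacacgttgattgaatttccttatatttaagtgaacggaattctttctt
din-1 site 3 (chrII:11620079-11620214, minus strand): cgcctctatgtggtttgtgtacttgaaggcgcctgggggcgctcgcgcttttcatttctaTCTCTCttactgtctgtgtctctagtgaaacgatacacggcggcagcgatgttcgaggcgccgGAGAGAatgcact
din-1 site 5 (chrII:11617915-11618115, minus strand): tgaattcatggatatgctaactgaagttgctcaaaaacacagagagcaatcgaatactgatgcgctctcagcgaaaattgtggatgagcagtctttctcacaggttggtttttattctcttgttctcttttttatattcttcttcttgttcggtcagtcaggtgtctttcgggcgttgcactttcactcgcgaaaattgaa
daf-12 site 1 (chrX:10637461-10637661, plus strand): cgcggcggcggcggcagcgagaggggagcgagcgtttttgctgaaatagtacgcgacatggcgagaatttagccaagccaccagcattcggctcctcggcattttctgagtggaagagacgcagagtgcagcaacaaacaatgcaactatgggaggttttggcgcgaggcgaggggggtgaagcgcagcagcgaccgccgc
daf-2 site 1 (chrIII:3041345-3041545, minus strand): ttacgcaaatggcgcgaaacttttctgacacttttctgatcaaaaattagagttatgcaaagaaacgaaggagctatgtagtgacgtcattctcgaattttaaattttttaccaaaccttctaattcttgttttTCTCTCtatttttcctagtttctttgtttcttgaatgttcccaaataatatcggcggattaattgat
daf-2 site 2 (chrIII:3008365-3008565, minus strand): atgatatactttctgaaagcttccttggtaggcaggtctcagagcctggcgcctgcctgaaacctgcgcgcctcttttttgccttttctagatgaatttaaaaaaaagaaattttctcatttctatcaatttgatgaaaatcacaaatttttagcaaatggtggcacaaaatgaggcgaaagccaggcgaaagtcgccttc
daf-5 site 1 (chrII:14040214-14040414, minus strand): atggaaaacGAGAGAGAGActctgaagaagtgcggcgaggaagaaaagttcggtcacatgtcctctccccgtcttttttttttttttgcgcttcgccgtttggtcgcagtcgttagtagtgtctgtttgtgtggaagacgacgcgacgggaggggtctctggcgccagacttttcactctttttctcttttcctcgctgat

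Of the 10 genes, 4 had a pooled summit in their window, against 14.8% of protein-coding nuclear genes. A reproducible summit was present at 2 of the 10, din-1 and daf-5, against 0.566% of genes. The 10 genes were chosen with earlier results of these data known. These shares, and those of all genes given below, are thus descriptions and no measure of an excess. The shares also do not allow for gene length. The median window was 18.2 kb for the 10 genes and 7.0 kb for protein-coding nuclear genes, and 9 of the 10 windows were longer than that second value. Per length, the 10 windows held 0.413 pooled summits per 10 kb, against 0.213 over the nuclear genome. Without din-1 the other 9 windows held 4 pooled summits, or 0.206 per 10 kb. With din-1 left out, the density was thus just below that of the genome. The 9 summits ranked between 56 and 1086 of 2155, and 8 of them lay above the median signal of the pooled list.

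**Figure D1:**
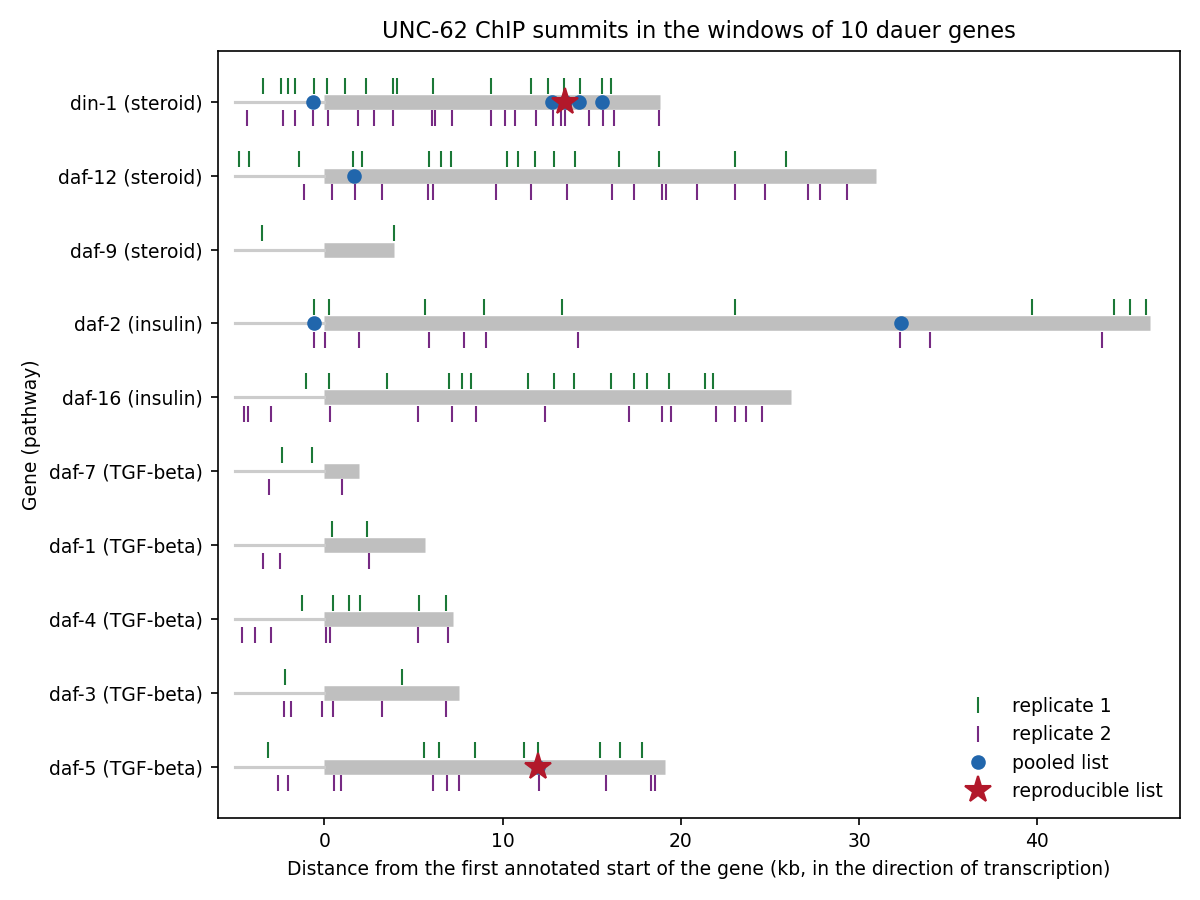
Summits in the window of each gene, by distance in kb from its first annotated start. Grey bars are gene bodies and thin lines the 5000 bp upstream; ticks above and below are replicate 1 and replicate 2 summits, circles pooled summits and stars reproducible ones. The 5 pooled summits at din-1 include 4 near its distal starts, and 6 of the 10 genes have none.

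The corepressor gene din-1 (WBGene00008549, II 11614770 to 11633609, minus strand) encodes a protein related to vertebrate SHARP and had the most pooled summits of the 10, with 5. As many or more were found at 0.0501% of protein-coding nuclear genes, which is 10 genes. Its window of 23.8 kb held 2.10 pooled summits per 10 kb, against 0.200 over the whole of chromosome II. The gene has 7 annotated coding transcripts with 6 distinct starts. Those that begin within 2972 bp of the first start encode 2014 to 2407 codons, whereas the transcript F07A11.6d.1 begins 13531 bp further on and encodes 567, and F07A11.6g.1 begins 16490 bp on and encodes 186. Genetic work has tied a short form of DIN-1 to the DAF-12 complex. The annotation used here does not say which transcript encodes it. Annotated starts in this species are often the ends of trans-spliced messages, so distances to them are approximate.

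The reproducible region at din-1 is site 3 (II 11619942 to 11620285). Its summit lay 36 bp upstream of the start of F07A11.6d.1, inside an intron of the longer transcripts and also within exons of the non-coding genes F07A11.10 and F07A11.15, the second of which is a small nucleolar RNA gene. Its pooled signal was 31.3, at rank 94. It was therefore the last but one of the 95 reproducible regions, between one nearest to mig-1 (rank 93, signal 31.47) and one nearest to epic-1 (rank 95, signal 31.23). The first region left off that list, 1047 bp upstream of ets-5, had a signal of 31.05 and was named after its value was seen. In replicate 1 the region had a signal of 9.38, at rank 1980, and in replicate 2 a signal of 22.0, at rank 27. The q values were 0.224 in replicate 1 and 0.0118 in replicate 2. The region was thus near the top of replicate 2 and well down the list of replicate 1.

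A further 3 pooled summits surrounded this start. Site 2 (II 11620643 to 11620986) lay 737 bp upstream of it in an intron, with a pooled signal of 18.3 at rank 898. It had rank 3387 in replicate 2. In replicate 1 no summit lay within 200 bp, the distance used for a match. The closest, 227 bp away, had a signal of 10.7 at rank 992 and was not counted. Site 4 (II 11619173 to 11619516) lay 733 bp downstream of the start in a 5′ UTR, with a signal of 17.6 at rank 1086. This site was closer, at 584 bp, to the start of F07A11.10. It had rank 12529 in replicate 1 and no match in replicate 2, where the closest summit was 602 bp away. Site 5 (II 11617843 to 11618186) lay in a coding exon, 896 bp upstream of the start of F07A11.6g.1. The site was closer, at 262 bp, to the start of the non-coding gene F07A11.12. It was the second highest at din-1, with a pooled signal of 23.7 at rank 235. Replicate 1 gave it a signal of 13.6, at rank 270, and replicate 2 a signal of 8.29, at rank 3919. Sites 3 and 5 were thus present in both replicates but led in different ones. Under the 200 bp rule sites 2 and 4 were each matched in 1 replicate. Sites 2 to 5 spanned 2800 bp.

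Site 1 (II 11634076 to 11634419) lay at the other end of the gene, 639 bp upstream of the first start, of the long transcript F07A11.6a.1. It fell in an exon of ZK20.8, a non-coding gene whose start is 86 bp away. Its pooled signal was 21.5, at rank 381. The signal was 7.22 in replicate 1, at rank 6106, and 14.3 in replicate 2, at rank 192. A pair of summits found in both replicates 2449 bp upstream of the same start, at rank 8298 in replicate 1 and rank 485 in replicate 2, was not in the pooled list. Site 1 and this upstream pair thus both stood higher in replicate 2, as site 3 did, whereas site 5 stood higher in replicate 1.

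**Figure D2:**
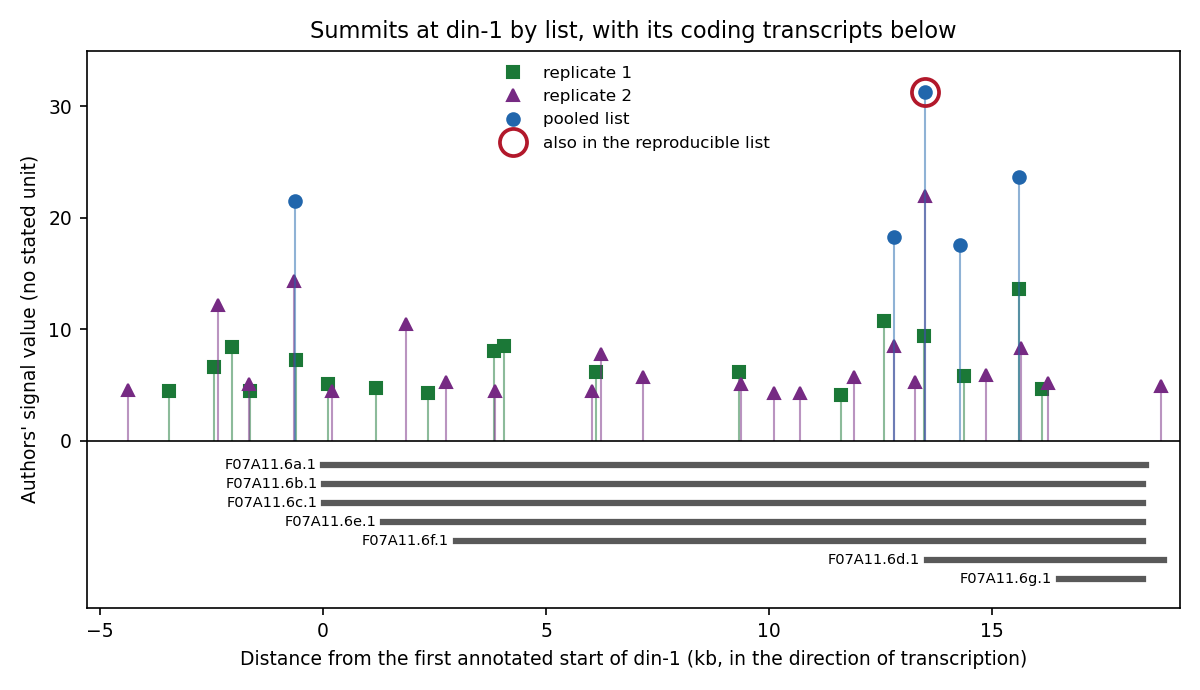
Signal of each summit in the din-1 window (vertical axis, the authors' values, which are comparable only within a list) by distance in kb from its first start. Squares are replicate 1, triangles replicate 2 and circles the pooled list; the ring marks the reproducible region with a pooled signal of 31.3, and bars below are the 7 coding transcripts. The region sits at the start of F07A11.6d.1.

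The replicate lists were also dense at din-1. Its window held 18 summits in replicate 1 and 22 in replicate 2, or 7.55 and 9.23 per 10 kb, against 2.99 per 10 kb over the nuclear genome in each list. Of the 18 replicate 1 summits, 11 had a replicate 2 summit within 200 bp, or 61.1%, against 23.1% of replicate 1 summits over the nuclear genome. A pair of the 11 shared the same replicate 2 summit. Dense summits match more often: 34.8% of the din-1 window lay within 200 bp of a replicate 2 summit, against 11.8% of the nuclear genome. As many matched summits or more were found at 0.01% of protein-coding nuclear genes, which is 2 genes, din-1 and pde-4, the second named after its value was seen.

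The receptor gene daf-12 (WBGene00000908, X 10635908 to 10666875, plus strand) had 1 pooled summit in a window of 36 kb. This region (X 10637389 to 10637732) lay in an intron 1653 bp downstream of the first of the 9 distinct starts, that of F11A1.3e.3. Its pooled signal was 18.4, at rank 872. Replicate 1 gave it a signal of 6.24, at rank 10063, and replicate 2 a signal of 13.9, at rank 213. It was thus far higher in the ranking of replicate 2. The best replicate 1 summit of the window, at rank 1219 and also in an intron, was 351 bp from that replicate 2 summit and was not counted as a match. Of the 17 replicate 1 summits in the window, 4 had a match in replicate 2, among them one 383 bp upstream of F11A1.3e.2 with ranks of 10033 in replicate 1 and 22356 in replicate 2. The pooled density at daf-12 was 0.278 per 10 kb, against 0.275 over the X chromosome.

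At daf-9 (WBGene00000905, X 6196927 to 6200823, plus strand), the hormone-producing enzyme, no pooled summit was found. The nearest one lay 6934 bp outside the gene, at rank 666. Replicate 1 held 2 summits in the window, at ranks 10068 and 21090, and replicate 2 held 0. The better of these lay in the 3′ UTR, and the other was closer to the start of ceh-54 than to daf-9. A daf-9 summit was thus not seen in both replicates.

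The insulin receptor gene daf-2 (WBGene00000898, III 2994514 to 3040846, minus strand) is the longest of the 10 and had 2 pooled summits in 51.3 kb. Site 1 (III 3041273 to 3041616) lay 599 bp upstream of the first start, that of Y55D5A.5c.1, with a pooled signal of 18.8 at rank 781. It had a signal of 5.64 in replicate 1, at rank 13550, and of 9.84 in replicate 2, at rank 1676, with summits 0 and 11 bp away from the pooled one. Site 2 (III 3008293 to 3008636) lay in an intron 2003 bp downstream of the start of Y55D5A.5f.1, with a pooled signal of 20.1 at rank 523. In replicate 2 it had a signal of 16.5, at rank 100, with a q value of 0.0352. In replicate 1 the closest summit was 7346 bp away. Site 2 thus rested on replicate 2 alone, and the weaker site 1 was the one seen in both. In numbers of summits daf-2 was sparse, with 10 in each replicate list, or 1.95 per 10 kb.

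The forkhead factor gene daf-16 (WBGene00000912, I 10750498 to 10776703, plus strand), the main target of the insulin pathway, had no pooled summit in 31.2 kb, and the nearest lay 23075 bp away. Each replicate list held 15 summits there, or 4.81 per 10 kb. Of those of replicate 1, 3 had a match in replicate 2, including one 135 bp downstream of the start of R13H8.1f.1 that ranked 16256 in replicate 1 and 20831 in replicate 2. The best in replicate 1 ranked 666, in an intron, with the closest replicate 2 summit 249 bp away, and the best in replicate 2 ranked 2043, closer to the start of B0205.4. The matched summits were thus low in both lists, and the higher ones were not shared.

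In the TGF-beta pathway the ligand gene daf-7 (WBGene00000903, III 811844 to 813773, plus strand), which is expressed in sensory neurons, had no pooled summit and no summit shared by the replicates. Each list held 2, and the best ranked 6649 in replicate 1 and 27484 in replicate 2, near the end of the list. The nearest pooled summit was 2479 bp outside the gene, on the downstream side and outside the window, at rank 2086.

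The receptor genes had no pooled summit either. At daf-1 (WBGene00000897, IV 132416 to 138081, plus strand), 1 intronic summit was shared, at rank 10449 in replicate 1 and rank 12901 in replicate 2. At daf-4 (WBGene00000900, III 5625135 to 5632323, plus strand), 3 were shared, and the best of them, in a 3′ UTR, ranked 1850 in replicate 1 and 21336 in replicate 2. The nearest pooled summits were 29443 bp from daf-1 and 15132 bp from daf-4. The SMAD-type gene daf-3 (WBGene00000899, X 817922 to 825475, minus strand) had 1 shared summit 2209 bp upstream, which ranked 503 in replicate 1 but 25675 in replicate 2 and was closer to the start of wdr-54. For all 3 genes the replicates thus shared a summit that ranked low in at least 1 of them.

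The last member, daf-5 (WBGene00000901, II 14033216 to 14052304, minus strand), encodes the Sno and Ski type partner of DAF-3 and carried the highest region of the 10 genes. This reproducible region (II 14040142 to 14040485) had a pooled signal of 37.5, at rank 56. It lay in an intron, 11990 bp downstream of the first start and 2593 bp upstream of the second, that of W01G7.1.1, so that it fell outside promoter windows of 1000 bp. Both transcripts encode 627 codons. Replicate 1 gave it a signal of 23.2, at rank 44, with a q value of 0.0424, and replicate 2 a signal of 10.3, at rank 1351, with a q value of 0.294. Here replicate 1 led, the reverse of din-1 site 3. It was the only pooled summit of the TGF-beta windows and the only summit in the daf-5 window that the replicates shared.

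Set side by side, the steroid windows held 6 pooled summits in 68.7 kb, or 0.873 per 10 kb, the insulin windows 2 in 82.5 kb, or 0.242, and the TGF-beta windows 1 in 66.4 kb, or 0.151, against 0.213 over the nuclear genome. Without din-1 the steroid windows had 0.223 per 10 kb in the pooled list and 4.23 in each replicate list. In replicate 1 the densities were 5.39 for steroid, 3.03 for insulin and 3.16 for TGF-beta windows, and in replicate 2 they were 5.97, 3.03 and 4.37 in the same order, against 2.99 in each list over the genome. The steroid windows were thus first in the pooled list and in both replicate lists; without din-1 they were first in replicate 1 only among these. The reproducible list held 1 summit in the steroid windows, 0 in the insulin windows and 1 in the TGF-beta windows. The order of insulin and TGF-beta depended on the list and on the window. With 10000 bp upstream the pooled densities were 0.216 for insulin and 0.219 for TGF-beta. With the first 2155 regions of replicate 1 alone, the TGF-beta windows had 0.452 per 10 kb, above the 0.242 of the insulin windows, and daf-2 had no summit. The steroid windows then had 0.582, so their lead over TGF-beta was much smaller than in the pooled list. With the first 2155 of replicate 2 alone the TGF-beta windows had 0.151, below the 0.363 of the insulin windows, and the steroid windows had 0.873. In these lists din-1 had 3 summits in replicate 1 and 4 in replicate 2. The pathways were listed by hand with 2 to 5 genes each, and no test was made of their difference.

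**Figure D3:**
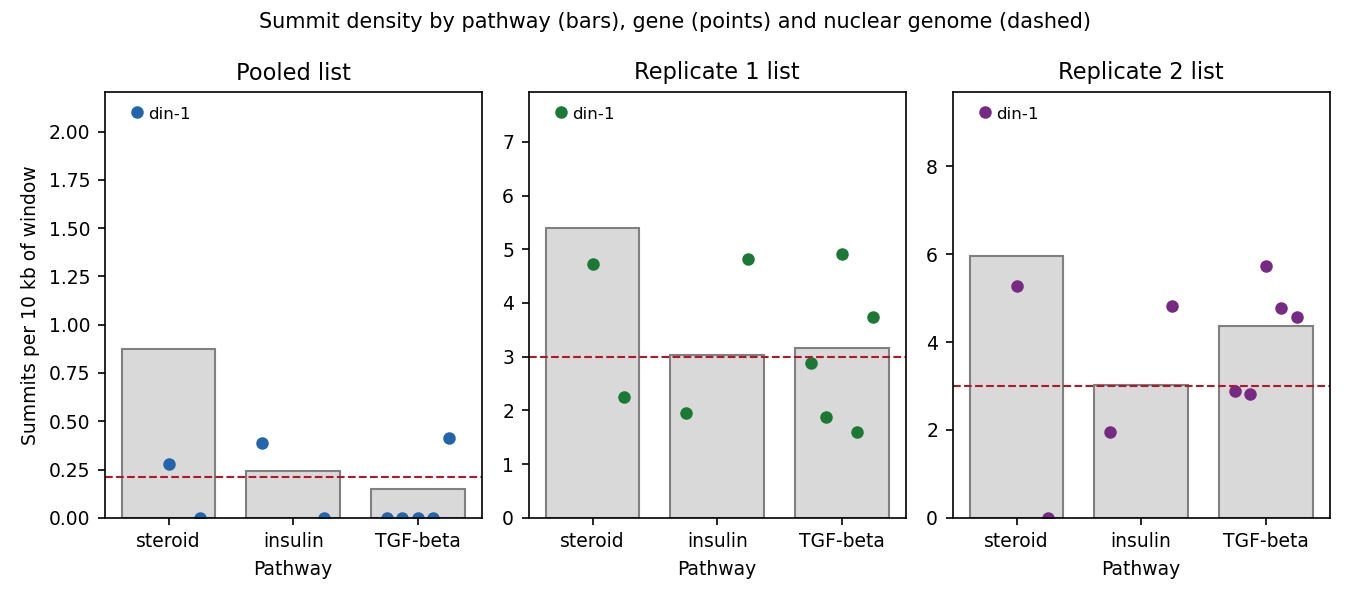
Summits per 10 kb of window (vertical axis) in the pooled list and in each replicate list. Bars are the pathways, points the single genes and dashed lines the nuclear genome; the vertical scales differ between panels. In all 3 panels din-1 is the highest point, at 2.10 in the pooled list, 7.55 in replicate 1 and 9.23 in replicate 2.

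A summit within 200 bp was present in both replicate lists for 6 of the 9 pooled summits. It was in replicate 1 only for 1 and in replicate 2 only for 2, and matches within 500 bp gave 7 in both. Under the 200 bp rule 76.4% of all nuclear pooled regions were in both. The 9 were thus not matched more often than pooled regions in general. With each replicate list limited to its first 5000 regions, 3 of the 9 remained in both: din-1 sites 3 and 5 and daf-5 site 1. Under the same limit 23.6% of nuclear pooled regions were in both. The ranks were unequal, since 6 of the 9 stood higher in replicate 2 and 3 in replicate 1. Over the whole windows, 26 of the 83 replicate 1 summits had a replicate 2 match, or 31.3%, against 23.1% over the nuclear genome. In the 9 windows without din-1 it was 15 of 65, or 23.1%. At least 1 match was present at 8 of the 10 genes, against 40.7% of protein-coding nuclear genes, whose windows are shorter as given above; daf-9 and daf-7 had none. Having a summit in a replicate list at all was common: all 10 genes had one in replicate 1 and 9 of 10 in replicate 2, against 88.1% and 88.5% of genes.

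**Figure D4:**
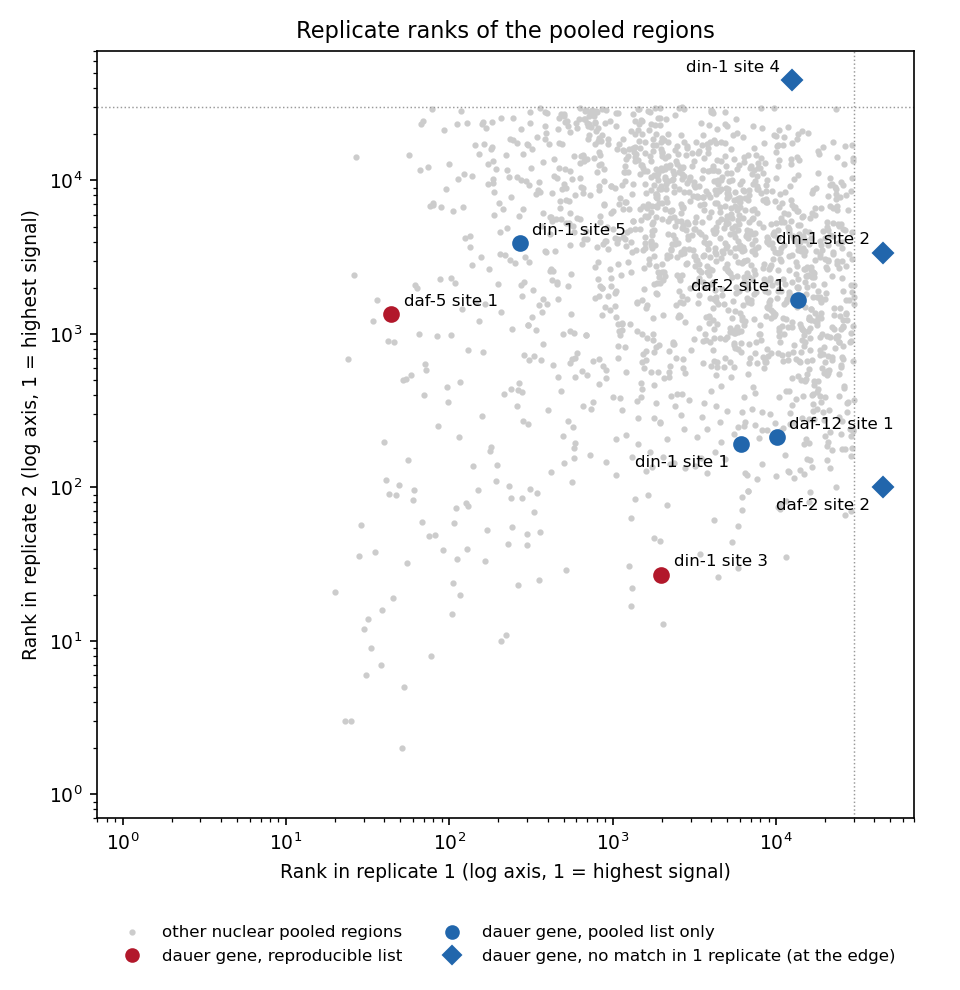
Rank in replicate 1 (horizontal) and in replicate 2 (vertical) of the pooled regions, on log axes where 1 is the highest signal. Coloured symbols are the 9 summits of the dauer genes, red where reproducible; diamonds at the edge have no match in 1 replicate, and grey points are the other nuclear pooled regions matched in both replicates. The reproducible regions of din-1 and daf-5 sit on opposite sides, at ranks 1980 and 27 for din-1 and 44 and 1351 for daf-5, replicate 1 first.

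Positions were set against the 3551 pairs of a protein-coding nuclear gene and a pooled summit in its window. Of the 9 summits, 5 lay in an intron of the gene, against 18% of these pairs, and 2 lay upstream of it, against 66.2%. The nearest protein-coding start was one of the gene itself for all 9, against 51.5% of pairs. There were 2136 nuclear pooled regions, so a summit in several windows entered the pairs once per gene. Its nearest start belongs to a single gene, so the 51.5% is lower than a share of summits would be. The intron and upstream values of 18% and 66.2% are likewise shares of pairs. Shares of summits were not computed, so the size of these contrasts is uncertain. These shares do not allow for length either, and the 4 genes with a summit have windows of 23.8 to 51.3 kb. A pooled summit from 1000 bp upstream to 200 bp downstream of an annotated start was present at 2 of the 10 genes, din-1 and daf-2, against 4.13% of protein-coding nuclear genes. At din-1 these were sites 1, 2, 3 and 5, and at daf-2 site 1.

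The GA repeat unit GAGAGA, sought on both strands within 100 bp of the summit, was present at 5 of the 9 summits, against 22.3% of nuclear pooled regions of the same length. It was at din-1 sites 2, 3 and 4, at daf-2 site 1 and at daf-5 site 1, and in the printed sequences it was part of the longer run GAGAGAGAGA at din-1 site 2 and at daf-5 site 1. Among the 76 nuclear reproducible regions 55.3% held it. The Meis core TGACAG was at 0 of the 9, against 8.66% of nuclear pooled regions, and TGATTGAC, a joint Pbx and Meis site, also at 0, against 1.12%. These letters are thus missing from the windows, which says nothing further about the protein. The GC content was above the median of nuclear pooled regions, 37.8%, at 8 of the 9 sites. It was 60.7% at daf-12 site 1, 58.7% at din-1 site 1 and 57.2% at din-1 site 3, each over the full 201 bp, between 40.3% and 49.8% at 5 further sites, and 32.3% at daf-2 site 1, the only one below that median. The part of base composition in these signals was not tested.

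Other genes of the same or related pathways were taken from a list of 46, of which 45 were found by name. In the steroid pathway 0 of 7 had a pooled summit and in the insulin pathway 1 of 16 did, against 14.8% of protein-coding nuclear genes, and lists this short do not set either count apart from that share. The insulin gene was ftt-2, which encodes a 14-3-3 protein that binds DAF-16, and its region was reproducible, with the summit 705 bp upstream of the gene. Its pooled signal was 34.2, at rank 73, and it ranked 68 in replicate 1 and 60 in replicate 2, so that here the replicates were alike.

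The further TGF-beta list mixed genes of the dauer pathway with genes of the related body-size pathway. In it 4 of 10 genes had a pooled summit, against the same 14.8%, with 7 summits in all. Of these 4 were at sma-9, a zinc finger gene of the related body-size pathway, with pooled signals of 29.5, 19, 18.6 and 15.7; the highest lay 2127 bp upstream, at rank 281 in replicate 1 and rank 271 in replicate 2. Another was daf-14, which encodes a SMAD of the dauer pathway (signal 22.8, rank 103 in replicate 1 and 978 in replicate 2). The rest were egl-4, a cGMP-dependent kinase gene (signal 17.0), and sma-2, a SMAD gene of the body-size pathway (signal 16.8) named after its value was seen. The egl-4 summit had rank 5113 in replicate 1 and no match in replicate 2. The sma-2 summit had rank 21012 in replicate 1 and 318 in replicate 2. Among sensory and pheromone genes 2 of 12 had one, also against 14.8%. They were daf-19, an RFX factor of cilia (signal 18), and daf-10, a gene of ciliary transport (signal 19.5), whose region was closer to the start of aly-2. Pooled densities were 0 for steroid, 0.0710 for insulin, 0.559 for TGF-beta and 0.159 for sensory genes per 10 kb, against 0.213 over the nuclear genome. The order of the lists was thus not the one seen in the 10 genes, but the TGF-beta value is not for the dauer pathway alone. It also rests largely on sma-9, which gave 4 of the 7 summits in 18.7 kb of the 125.3 kb. A value without sma-9 was not computed.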

How the data were processed

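ChIP-seq of UNC-62 was measured in 2 biological replicates in 1 group. The authors deposited narrowPeak lists on build ce11 for each replicate, for the pool and after IDR thresholding, made against a control that was not used here, per the deposited file lists. The name of an aligner or peak caller is not given in the sources used here. The deposited signal (column 7) and −log10 q value (column 9) are the authors' own. Lists on ce10 were not used, since no ce10 annotation was at hand. All regions fitted within the chromosome lengths of WBcel235.

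Genes came from Ensembl release 115 (46926 genes) and sequence from the RefSeq assembly WBcel235. Positions are 1-based, and summits are start plus summit offset. A match was a summit within 200 bp, taking the best rank where several matched. Values were computed over all 19973 protein-coding nuclear genes and then given for the 10 members. Window and match steps were tested on simulated data. The members, pathway lists and settings were chosen with earlier results of these data known. Genes named were the members, further pathway genes with a reproducible summit or among the 3 highest pooled signals of their pathway, the genes ranked just above and below the din-1 region, those with the start nearest to a named summit, and unc-62. Exceptions are marked where they occur. Alternatives covered the window, the matching rule, the list and each replicate alone. Computation used Python 3.11.15, numpy 2.4.6 and matplotlib 3.10.9.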

Additional observations from a re-analysis of the deposited data

How the results depend on the processing

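Of 54 values recomputed under alternative settings, 50 stayed within 1.5 times the value given. They covered the counts of pooled, reproducible and shared summits, the number of genes with a summit and the densities of the pathways, under upstream windows of 2000 and 10000 bp, overlap of the region in place of its summit, assignment to the nearest protein-coding start, the first 1000 pooled regions, and matches within 100 or 500 bp. With the first 5000 regions of each replicate, 3 pooled summits were in both lists in place of 6. With 1 replicate left out, 5 summits lay above the median of the list in either case, in place of 8, and the TGF-beta density was 0.151 per 10 kb without replicate 1 and 0.452 without replicate 2. The number of genes with a summit, 4 in the pooled list, was 5 without replicate 1 and 6 without replicate 2. These values counted as within 1.5 times, as did an insulin density of 0.363 without replicate 1 and a steroid density of 0.582 without replicate 2. The cause of these shifts was not tested. For single genes, leaving out replicate 2 left 3 summits at din-1 and 0 at daf-2, and gave 2 at daf-16 and 1 each at daf-4 and daf-3. Leaving out replicate 1 gave 2 at daf-12 and 1 at daf-16. The window of 10000 bp added 1 summit at daf-5, for 2 in all. Depth is unknown, so an absent summit is one not called, not a site without binding.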

Other observations

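The 10 protein-coding nuclear genes with 5 or more pooled summits in their window were named after their counts were seen. Besides unc-62, with 7, each had 5. These were din-1, egl-27, mnk-1 and pde-4 on chromosome II, T10B11.4, pck-2 and ppfr-1 on chromosome I, zfp-1 on chromosome III and pkc-1 on chromosome V. None was on X, although X had the highest density of pooled summits, 0.275 per 10 kb, against 0.189 to 0.229 on the autosomes. Their windows were 7.2 to 30.9 kb long. No other gene of the dauer lists was among them.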
